A study of Mus musculus with 6 samples.

Results

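The cyclins described here are *Ccno* and the cell cycle cyclins *Ccna2*, *Ccnb1*, *Ccnb2*, *Ccnd1*, *Ccnd2*, *Ccnd3*, *Ccne1* and *Ccne2*, measured in LSK cells, the Lin- Sca-1+ c-Kit+ fraction of mouse bone marrow that holds the hematopoietic stem cells and multipotent progenitors. They were defined by gene name, and *Ccno* was added because of its rise in these same arrays, so its values are given as a description with no test. Of the 9 genes, 7 had a named probe, and these 7 genes had 14 named probes on the Illumina mouse BeadChip of 45281 probes. Names were available only within the 19750 probes with deposited log2 values, so any cyclin probes outside them were not identified. All 14 entered the comparison, which held 22119 probes with a detection p-value under 0.05 on at least 1 array. No probe in the annotation used here was named for *Ccnb1* or *Ccnb2*, which were not analysed. There were 3 pools of PU.1-deficient LSK cells (*Spi1* fl/fl MxCre+) and 3 pools of wild-type LSK cells (*Spi1* +/+ MxCre+), each pool combining several C57BL/6 mice aged 6 to 12 weeks. Both genotypes carried the MxCre transgene, whose promoter responds to interferon and is active well beyond blood cells, and both were given polyIC (5 µg per g body weight) in a pair of injections 3 days apart. The cells were taken on day 14 after the first injection, the earliest of the days that the labels list without tying a pool to any of them.

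A cyclin is the regulatory subunit of a cyclin-dependent kinase (CDK), and the turnover of successive cyclins drives the cell through its division cycle. The D-type cyclins act in G1, where with CDK4 or CDK6 they phosphorylate the retinoblastoma protein in response to growth factors and cytokines, the E-type cyclins act with CDK2 at entry into S phase, and the A- and B-type cyclins act in S phase, G2 and mitosis. *Ccno* encodes an atypical cyclin best known from multiciliated epithelial cells, where it is needed for the mass production of centrioles. In hematopoietic progenitors the D-type cyclins are partly redundant, and their levels follow cytokine and lineage signals.

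The deletion was checked first. *Spi1*, the gene of PU.1, gave, with the probe for the exon that Cre removes, log2 intensities of 6.62, 5.80 and 6.00 in the PU.1-deficient pools and of 8.54, 8.51 and 8.69 in the wild-type pools, so that 25.7%, 14.6% and 16.7% of the mean wild-type signal was left. Over the arrays, the median intensity was 89.5 to 116.5 and 15639 to 18174 probes were detected, and precision is limited by the small number of arrays. Markers of other cells also differed between the genotypes. They were counted at an adjusted p under 0.05 (*limma*, brightest probe of each gene). At this threshold 6.61% of all 10528 tested genes were higher and 5.59% lower. Of the tested neutrophil markers 7 of 9 were higher in PU.1-deficient cells, with a summed signal of 118885 to 130915 in the PU.1-deficient pools and 25758 to 39439 in the wild-type pools, whereas 4 of 5 erythroid (1157 to 1485 against 2849 to 7637) and 5 of 5 megakaryocyte markers (795 to 1354 against 5874 to 6294) were lower. Of the 4 tested genes that mark LSK cells, 2 were lower and none was higher, and their sums were 4467 to 5382 in PU.1-deficient and 7119 to 8298 in wild-type pools. Of the monocyte and dendritic cell markers 1 of 4 and of the B cell markers 1 of 2 was lower, and the single tested T cell and NK cell markers did not pass. *Xist*, the transcript of the inactive X chromosome of females, was detected by all 4 of its probes in the 3 PU.1-deficient pools and by 1 of them in 1 wild-type pool, so the sexes of the pooled mice cannot be told apart from genotype. In pools of cells, fewer cells of a type and less RNA per cell cannot be told apart, and the part of these differences in the cyclin results below was not tested.

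*Ccno* lies on chromosome 13 at 112987802-112990778 of the mouse genome build GRCm38.p6, on the forward strand. The RefSeq promoter window of the same build, chr13:112987552-112987851, runs from 250 bases before to 50 bases after the start site and is shown because *Ccno* had the largest difference of the cyclins. It was searched on both strands for GAGGAA (the core of the PU.1 site), CCAAT (the CCAAT box), TTTGAA (the CHR element of cell cycle promoters) and the E2F motifs TTTCCCGC and TTTGGCGC. The capitals mark the only match in this window, a GAGGAA on the opposite strand that reads TTCCTC here and begins at position 31 after the start site.
Ccno: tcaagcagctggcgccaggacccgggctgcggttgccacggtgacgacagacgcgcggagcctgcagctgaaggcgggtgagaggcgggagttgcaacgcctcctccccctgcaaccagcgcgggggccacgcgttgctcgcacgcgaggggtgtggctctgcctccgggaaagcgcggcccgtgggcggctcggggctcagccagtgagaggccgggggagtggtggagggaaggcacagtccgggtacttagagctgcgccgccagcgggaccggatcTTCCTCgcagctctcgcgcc
A GAGGAA was also found in 28.3% of all 32851 promoter windows of the same length, so the match is a description of the sequence and not of binding. It was not particular to *Ccno* among the cyclins: of the 5 cyclin genes with a window in the table, the windows of *Ccnb1* and *Ccnb2* also held a GAGGAA, along with CCAAT in both and TTTGAA in that of *Ccnb2*.

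In PU.1-deficient LSK cells the single named *Ccno* probe (ILMN_2736471) gave log2 intensities of 9.75, 9.76 and 9.36, against 4.49, 4.41 and 4.53 in wild-type cells. The transcript was detected in all PU.1-deficient pools and in none of the wild-type pools, where the detection p-values were 0.452, 0.687 and 0.355. The raw intensities, which still hold background, were 927, 567 and 823 in the PU.1-deficient pools and 104, 102 and 87.4 in the wild-type pools. Every PU.1-deficient pool was thus far above every wild-type pool, and the wild-type pools were indistinguishable from background. The measured log2 difference was 5.15. For a bound, each wild-type array was given the higher of the probe's own signal and the lowest signal of any detected probe. On the normalized scale used here, the level in PU.1-deficient cells was then higher by a factor of at least 25.0. With a stricter detection p-value of 0.01 this bound was 18.8. The measured difference was 3.16 without background correction and 3.87 with a larger offset, since both settings compress values near background. As fold changes both are below the bounds of 25.0 and 18.8, which hold only on the normalized scale used here.

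With the probe names available, values could be assigned only to genes before *Ccno*. Of the 4 nearest protein-coding genes on each side, 3 had a named probe, all of them before *Ccno*, and by their brightest probe 0 of these 3 passed in *limma*, also 0 at an unadjusted p under 0.05. These were the RNA helicase genes *Dhx29*, 18370 bp before *Ccno*, with a log2 fold change of -0.28 (adjusted p = 0.738), and *Mtrex*, with -0.13 (adjusted p = 0.739), and the amino acid transporter gene *Slc38a9*, with -0.50 for its brightest probe (adjusted p = 0.339) and -0.44 and -0.41 for the others. The *Slc38a9* probe with -0.44, detected in 2 wild-type pools only, had an unadjusted p of 0.0472 in *limma* (adjusted p = 0.228). No probe was named for *Plpp1*, before *Ccno*, or for *Mcidas*, *Cdc20b*, *Gpx8* and *Gzma*, after it, so nothing was tested on that side. *Mcidas*, which begins 2803 bp after *Ccno* and encodes a regulator of the multiciliated cell program, therefore gave no value here. Over the 6 pools, the tested genes whose log2 values followed *Ccno* most closely were *Mcf2l*, a guanine nucleotide exchange factor (Pearson r = 0.9998, log2 fold change 3.08), *Lrg1*, a secreted glycoprotein of neutrophil granules (r = 0.9995, 6.75), and *Chit1*, a chitinase of phagocytes (r = 0.9991, 4.77). These coefficients describe 6 points that form 1 cluster per genotype and share their libraries. The genes were picked for the highest coefficients among all tested probes with 1 gene.

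**Figure D1:**
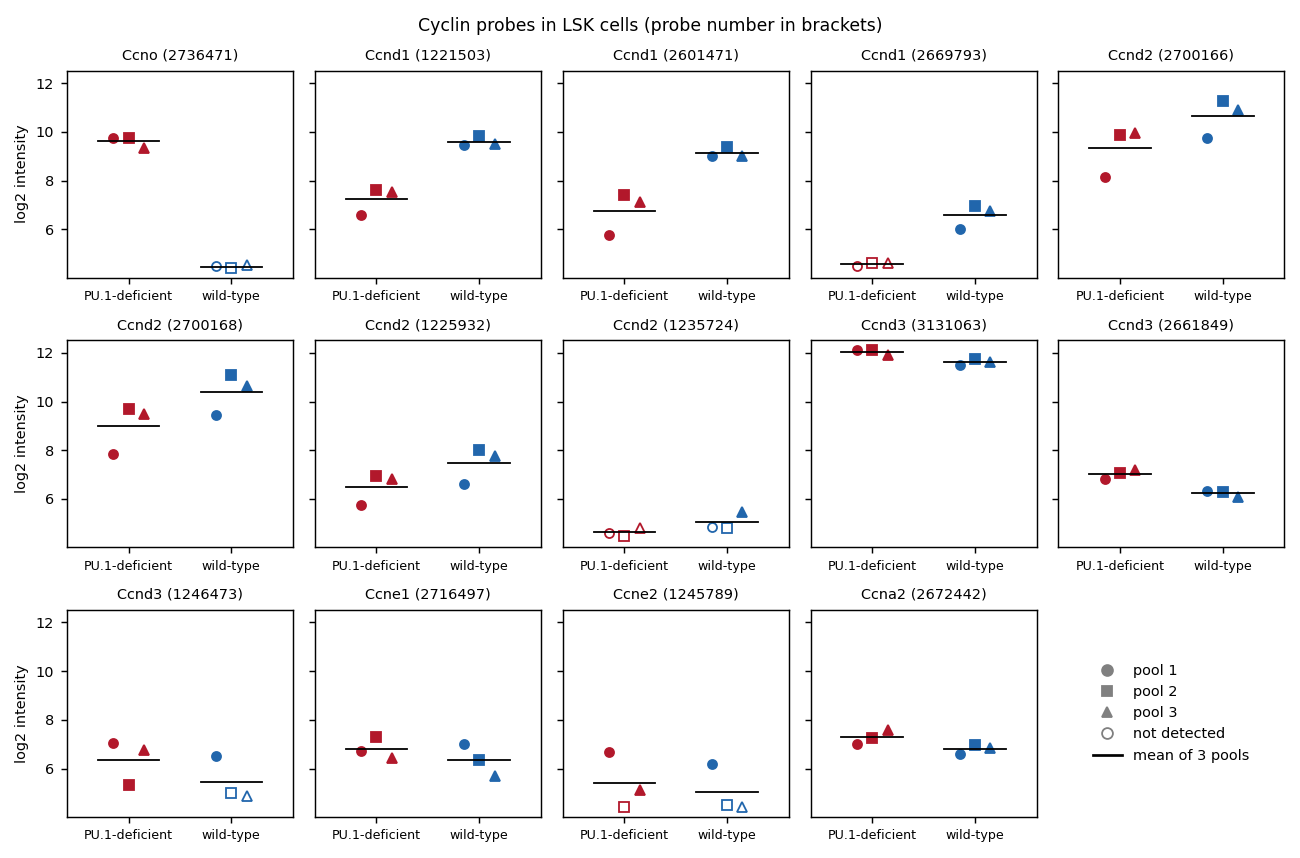
Log2 intensity (y axis, neqc values) of the 14 cyclin probes in the 3 PU.1-deficient pools (red, left) and the 3 wild-type pools (blue, right), with the shape of a point giving the pool number, open points not detected and lines at the mean of 3 pools. *Ccno* had no detected signal in wild-type cells and *Ccnd1* was lower in every PU.1-deficient pool, whereas the *Ccnd2* points of pool 1 lie below those of the other pools of the same genotype in 3 of the 4 probes. Levels of different probes are not comparable.

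Of the 13 probes of the other 6 cyclins, 1 had a higher and 3 had a lower signal in PU.1-deficient LSK cells at an adjusted p under 0.05 (*limma*, Benjamini-Hochberg over all tested probes, 3 pools per genotype), and 9 did not pass. Over all 22119 tested probes, 8.79% passed, 4.89% as higher and 3.91% as lower. The pools of the genotypes did not overlap for 7 of the 13 probes, against 28% of all tested probes. The median log2 fold change of the 13 probes was -0.42, and that of all tested probes was -0.05. Probes of 1 gene share their transcript. With the brightest probe of each of the 6 genes there was 1 lower gene and none higher, whereas 5 did not pass. Of all genes tested in this way 12.2% passed. The median of the 6 genes was 0.39, opposite in sign to that of the 13 probes, against -0.04 for all tested genes.

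*Ccnd1* fell in PU.1-deficient LSK cells, by all 3 of its probes. *Ccnd1* (chromosome 7, 144929931-144939831) encodes cyclin D1, which couples mitogen signals to CDK4 and CDK6. Probe ILMN_1221503 gave 6.59, 7.63 and 7.53 in the PU.1-deficient pools and 9.45, 9.84 and 9.50 in the wild-type pools. Probe ILMN_2601471 gave 5.77, 7.43 and 7.12 in the PU.1-deficient pools and 9.02, 9.39 and 9.03 in the wild-type pools. Both put each PU.1-deficient pool below each wild-type pool, with PU.1-deficient pool 1 the lowest of all. The log2 fold changes were -2.34 (standard error 0.30, 95% interval -3.04 to -1.65, adjusted p = 0.00338) and -2.37 (standard error 0.41, adjusted p = 0.0119), which left 19.7% and 19.4% of the wild-type signal.
The third probe, ILMN_2669793, was above background in no PU.1-deficient pool (4.52, 4.63 and 4.61) and in every wild-type pool (6.02, 6.98 and 6.77). It gave the same separation of the pools. On the normalized scale used here, its level in PU.1-deficient cells was at least 2.79-fold lower (log2 fold change -2.0, adjusted p = 0.00367). The log2 fold change of this probe near background was -0.83 without background correction and -1.18 with the larger offset. Probes ILMN_1221503 and ILMN_2669793 passed under all 15 alternative settings, whereas ILMN_2601471 did not pass without wild-type pool 2 (adjusted p = 0.059) or without wild-type pool 3 (adjusted p = 0.055).

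*Ccnd2* had lower means in PU.1-deficient cells in all 4 probes, and none passed the test in the unpaired comparison of the 6 pools. *Ccnd2* (chromosome 6, 127125162-127152188) encodes cyclin D2, a cytokine-responsive D-type cyclin of blood cells. Probe ILMN_2700166 gave 8.16, 9.89 and 9.96 in the PU.1-deficient pools and 9.76, 11.28 and 10.89 in the wild-type pools. Probe ILMN_2700168 gave 7.84, 9.70 and 9.48 in the PU.1-deficient pools and 9.44, 11.10 and 10.65 in the wild-type pools. In both genotypes pool 1 was the lowest by more than 1 log2 unit, so that wild-type pool 1 lay below PU.1-deficient pools 2 and 3 and the groups overlapped. The log2 fold changes were -1.31 (95% interval -2.62 to 0.01, adjusted p = 0.241) and -1.39 (95% interval -2.74 to -0.03, adjusted p = 0.224).
Probe ILMN_1225932 showed the same order, with 5.77, 6.94 and 6.81 in the PU.1-deficient pools and 6.62, 8.02 and 7.78 in the wild-type pools (log2 fold change -0.96, adjusted p = 0.27). Probe ILMN_1235724 was close to background, undetected in the PU.1-deficient pools and detected in 1 wild-type pool (log2 fold change -0.42, adjusted p = 0.35). Leaving out both pools numbered 1, a choice made after seeing the data, gave -1.16, -1.28 and -1.02 for the first 3 probes, and each then passed (adjusted p = 0.041, 0.0378 and 0.0487). Weighting the arrays by their fit also brought these 3 probes past the threshold (adjusted p = 0.0342, 0.0158 and 0.0137), in a setting that called 33% of all probes.

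*Ccnd3* had higher means in PU.1-deficient cells in all 3 probes, of which 1 passed. *Ccnd3* (chromosome 17, 47505051-47599689) encodes cyclin D3, the D-type cyclin used in lymphoid and granulocytic expansion. Probe ILMN_2661849 gave 6.83, 7.06 and 7.20 in the PU.1-deficient pools and 6.34, 6.27 and 6.10 in the wild-type pools. The groups did not overlap, although the raw intensities of this probe did (199, 138 and 260 in the PU.1-deficient pools, 194.5, 188 and 126 in the wild-type pools). The log2 fold change was 0.79 (standard error 0.18, adjusted p = 0.0363). This call was lost when the arrays were scaled to equal medians instead of quantile-normalized (0.51, adjusted p = 0.375) and without any 1 of 5 pools, the exception being wild-type pool 1, with adjusted p-values of 0.0593 to 0.158.
Probe ILMN_3131063 gave 12.10, 12.13 and 11.91 in the PU.1-deficient pools and 11.50, 11.76 and 11.62 in the wild-type pools. These groups did not overlap either, but the difference was small (0.42, 95% interval 0.03 to 0.81, adjusted p = 0.207) and passed under no alternative. Probe ILMN_1246473 varied within both genotypes, with 7.03, 5.31 and 6.76 in the PU.1-deficient pools, detected in 3 of 3, and 6.53, 4.98 and 4.87 in the wild-type pools, detected in 1 of 3. Its log2 fold change was 0.90 (adjusted p = 0.446), and it passed only with array weights (1.68, adjusted p = 0.00242).

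RefSeq lists more than 1 start site for *Ccnd3*, and both windows in the promoter table were searched for the same motifs. The window at chr17:47504801-47505100 held none of them. The window at chr17:47593217-47593516 (GRCm38.p6, forward strand), shown for comparison with that of *Ccno*, held 1 CCAAT, in capitals, that begins 108 bases before the start site.
Ccnd3: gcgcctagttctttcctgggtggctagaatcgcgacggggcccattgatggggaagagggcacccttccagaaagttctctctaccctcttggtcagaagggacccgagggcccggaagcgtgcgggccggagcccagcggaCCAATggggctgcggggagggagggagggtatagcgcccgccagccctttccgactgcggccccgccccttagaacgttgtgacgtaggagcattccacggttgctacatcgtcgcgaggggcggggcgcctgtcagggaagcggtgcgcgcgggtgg
A CCAAT was found in 37.4% of all promoter windows. The window of *Ccne1* (chr7:38107441-38107740, reverse strand) held no match to any motif searched.

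**Figure D2:**
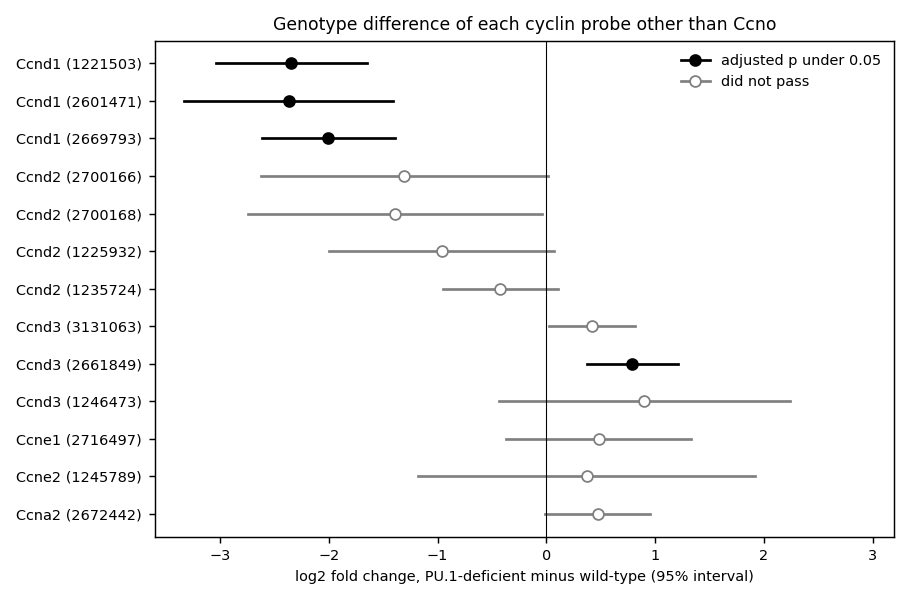
Log2 fold change of each cyclin probe other than *Ccno*, PU.1-deficient minus wild-type (x axis, point with its 95% interval), by gene and probe number (y axis), with filled points at an adjusted p under 0.05. The 3 *Ccnd1* probes lie between -2.37 and -2.0, and among the rest 1 probe of *Ccnd3* (0.79) passed.

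The E-type and A-type cyclins did not pass the test with all 6 pools weighted equally. *Ccne1* (chromosome 7, 38097984-38107490), which encodes cyclin E1, gave 6.72, 7.30 and 6.45 in the PU.1-deficient pools and 7.0, 6.34 and 5.69 in the wild-type pools. *Ccne2* (chromosome 4, 11190433-11204779), the gene of cyclin E2, gave 6.69, 4.43 and 5.12 in the PU.1-deficient pools, of which 2 were detected, and 6.20, 4.51 and 4.42 in the wild-type pools, of which 1 was detected. For both genes the genotypes overlapped, and for *Ccne2* pool 1 was the highest in each genotype. The log2 fold changes were 0.48 for *Ccne1* (95% interval -0.37 to 1.33, adjusted p = 0.535) and 0.37 for *Ccne2* (95% interval -1.18 to 1.92, adjusted p = 0.828), and that of *Ccne2* was -0.27 without PU.1-deficient pool 1. These intervals include both a fall and a more than 2-fold rise.
*Ccna2* (chromosome 3, 36564865-36573038), which encodes cyclin A2 of S phase and G2, gave 7.0, 7.27 and 7.56 in the PU.1-deficient pools and 6.61, 6.97 and 6.84 in the wild-type pools. The groups did not overlap, by a margin of 0.03 between the lowest PU.1-deficient pool and the highest wild-type pool. The log2 fold change of 0.47 (95% interval -0.01 to 0.96) did not pass (adjusted p = 0.248). With scaling to equal medians it was 0.17 (adjusted p = 0.803), and it passed with array weights (0.61, adjusted p = 0.0156).

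Pool 1 often lay at the same end of the range in both genotypes, among the cyclin probes and among all probes. In 9 of the 14 probes pool 1 was at the same end of the range in both genotypes, and in 7 of these it was the lowest. Pool 1 was at the same end in both genotypes for 46.4% of all 22119 tested probes, against 64.3% of the cyclin probes. It was the lowest in both genotypes for 5770 of the 22119. The cyclin share counts several probes of *Ccnd1* and of *Ccnd2*, which share their transcript and are not separate observations. The 3 *Ccnd1* probes and *Ccnd2* probes ILMN_2700166, ILMN_2700168 and ILMN_1225932 were lowest in pool 1 of both genotypes, as was *Ccna2*, whereas *Ccne2* and *Ccnd3* probe ILMN_1246473 were highest there. Wild-type pools 1 and 3 nearly tied in *Ccnd1* probes ILMN_1221503 (9.45 and 9.50) and ILMN_2601471 (9.02 and 9.03). *Ccnd1* probe ILMN_2669793 was undetected in every PU.1-deficient pool. The labels do not say what a pool number stands for.

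**Figure D3:**
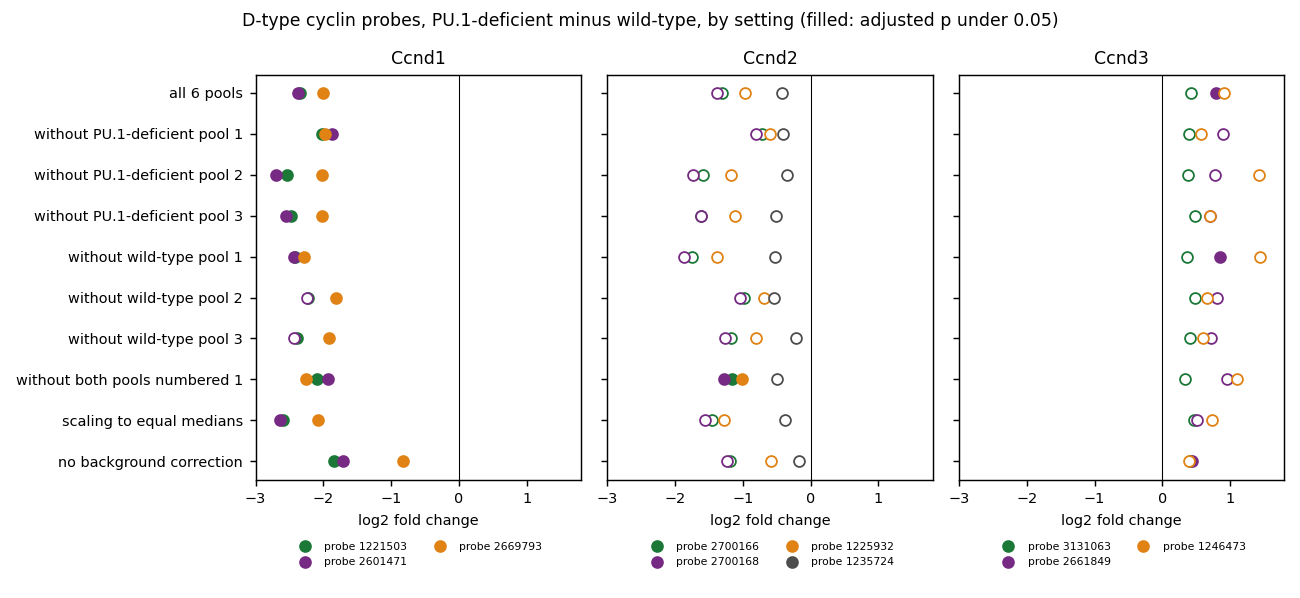
Log2 fold change, PU.1-deficient minus wild-type (x axis), of the probes of *Ccnd1*, *Ccnd2* and *Ccnd3* with all 6 pools, without single pools or both pools numbered 1, and with other scaling or background treatment (y axis), with filled points at an adjusted p under 0.05. All *Ccnd1* and *Ccnd2* points lie below 0 and all *Ccnd3* points above 0, and 3 *Ccnd2* probes passed without both pools numbered 1.

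Of the genes that act with cyclins, few passed the test, and those that did were higher in PU.1-deficient cells. Outside the CDK inhibitors each list held at most 1 such gene, which is near the share of all tested genes. Over all 10528 tested genes, by their brightest probe, 6.61% were higher and 5.59% lower, with a median log2 fold change of -0.04. Among the CDK inhibitors 3 of 7 tested genes were higher and none lower, with a median of 0.33, or 0.26 with scaling to equal medians. *Cdkn3*, a phosphatase that acts on CDKs, gave 10.46, 10.14 and 10.17 in the PU.1-deficient pools and 9.05, 8.77 and 8.98 in the wild-type pools. It rose by 1.32 on the log2 scale (adjusted p = 0.0043) and passed in every alternative. *Cdkn1a*, the gene of p21, gave 8.54, 8.83 and 8.14 in the PU.1-deficient pools and 7.11, 7.21 and 7.25 in the wild-type pools. It rose by 1.31 (adjusted p = 0.0092), a call that was lost without both pools numbered 1 (0.0605). *Cdkn2d*, the gene of p19, which inhibits CDK4 and CDK6, rose by 0.89 (adjusted p = 0.0332). That call was lost with scaling to equal medians (adjusted p = 0.168), without PU.1-deficient pool 1 or 3 (0.125 and 0.11) and without any 1 wild-type pool (0.0674 to 0.127).

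Among the CDKs and their regulators 1 of 12 tested genes was higher, with a median of 0.36 and 10 genes above 0. With scaling to equal medians the median was 0.10, with 6 genes above and 6 below 0. This was *Cks2*, a small CDK-binding subunit, with 8.34, 8.17 and 8.21 in the PU.1-deficient pools and 7.36, 7.22 and 7.14 in the wild-type pools (log2 fold change 1.00, standard error 0.16, adjusted p = 0.00935). It did not pass with scaling to equal medians (adjusted p = 0.156) or without wild-type pool 2 or 3 (0.0542 and 0.0579). Of the E2F, pocket protein and DREAM factors, which bind or repress cell cycle promoters, 1 of 16 was higher, with a median of -0.05, or -0.22 with scaling. It was *E2f2*, an activator E2F (1.26, adjusted p = 0.045), which did not pass with scaling (adjusted p = 0.0961), with no filter on dim probes (0.103) or without PU.1-deficient pool 2 or 3 or any 1 wild-type pool (0.0502 to 0.167). Of the genes for cyclin degradation 1 of 21 was higher, with a median of -0.05, or -0.07 with scaling. *Ube2c*, the ubiquitin-conjugating enzyme of the anaphase-promoting complex, had a log2 fold change of 1.19 (adjusted p = 0.0283), but it did not pass with scaling (adjusted p = 0.23), with no filter on dim probes (0.0584) or without PU.1-deficient pool 3 (0.0669), wild-type pool 2 (0.107) or wild-type pool 3 (0.13).

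Of the 15 S phase genes, 1 was higher and the median was -0.25, or -0.36 with scaling. *Rrm2*, a subunit of ribonucleotide reductase, rose by 1.08 (adjusted p = 0.00957) and did not pass without wild-type pool 3 (0.0581), whereas 13 of the 15 genes had values below 0. Of the 13 tested mitosis genes, 1 was higher. *Plk1*, a mitotic kinase, gave 10.51, 10.63 and 10.36 in the PU.1-deficient pools and 9.71, 9.35 and 9.42 in the wild-type pools (log2 fold change 1.00, adjusted p = 0.0143). Its call was lost without PU.1-deficient pool 1 (0.0579), wild-type pool 2 (0.0782) or wild-type pool 3 (0.0773). All 13 mitosis genes had values above 0, with a median of 0.45, and with scaling to equal medians all 13 were still above 0, with a median of 0.27.
None of the 14 tested genes of other cyclins passed in *limma* in the unpaired comparison of the 6 pools, 1 had an unadjusted p under 0.05, and their median was 0.07, or -0.12 with scaling. The smallest p-values were those of *Ccni* (0.64, adjusted p = 0.114), which passed with array weights (0.40, adjusted p = 0.0497), and *Ccnf* (0.66, adjusted p = 0.29). Of 18 listed genes of multiciliated cells and centriole formation, the setting in which *Ccno* is best known, 10 were tested. *Mcidas*, *Deup1*, *Cdc20b*, *Foxn4*, *Trp73*, *Dnaic1*, *Tekt1* and *Tekt2* had no tested named probe. None of the 10 tested genes passed in *limma* in the same comparison, and 2 had an unadjusted p under 0.05. Their median was 0.22, and -0.04 with scaling. The share of all tested genes under the unadjusted cut was not computed, so the counts at that cut have no background beside them. *Plk4*, the kinase that starts centriole duplication, had the smallest p-value, with a log2 fold change of 0.65 (adjusted p = 0.0878), and passed without PU.1-deficient pool 2 (0.0454), without background correction (0.0436), with the larger offset (0.0497) and with array weights (0.00395). *Gmnc*, a geminin relative of multiciliated cells, came next, with 0.59 (adjusted p = 0.119).

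**Figure D4:**
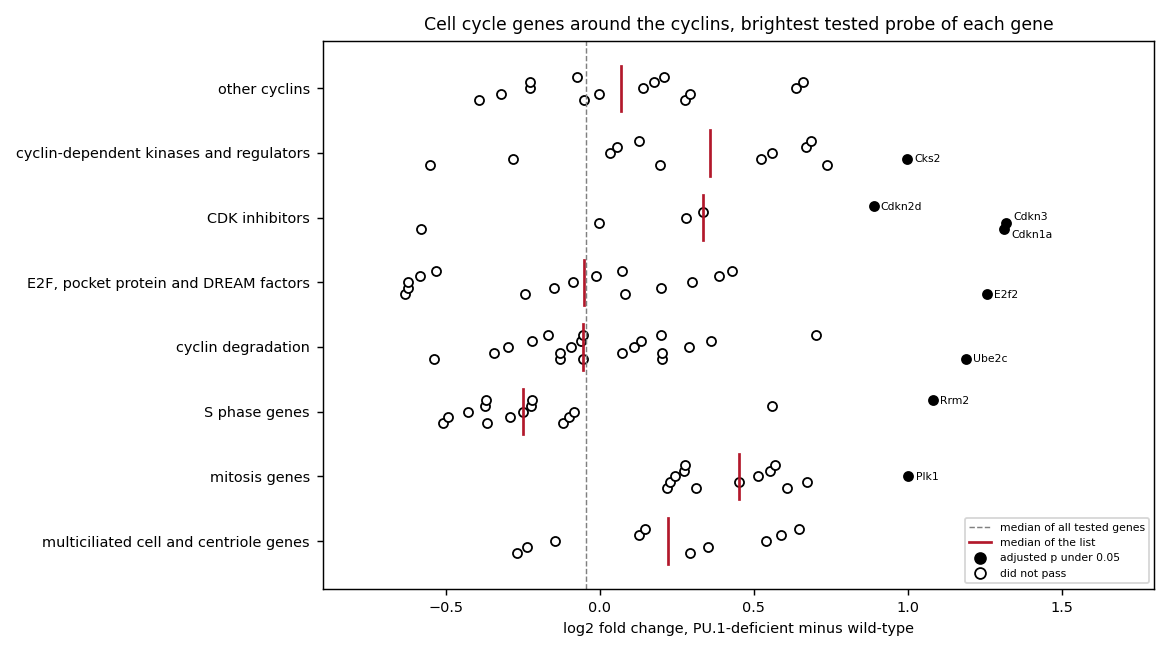
Log2 fold change, PU.1-deficient minus wild-type (x axis), of the genes of 8 cell cycle lists (y axis), 1 point per gene by its brightest tested probe, filled and named at an adjusted p under 0.05, with red lines at the list medians and a dashed line at the median of all tested genes. The 13 mitosis genes lie above 0 and 13 of the 15 S phase genes below it, and the CDK inhibitors hold 3 named genes.

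For the other cyclins the most similar genes over the 6 pools were found in the same way as for *Ccno*, by the brightest probe. Those closest to *Ccnd1* were *Prdx1*, *Timm9* and *Pus1*, those closest to *Ccnd2* were *2310033P09Rik*, *Camk2d* and *Gnat2*, and those closest to *Ccnd3* were *Dnajc6*, *Ccdc126* and *Igf2r*. For *Ccne1* they were *Eif4e2*, *Thap1* and *S100a14*, for *Ccne2* *Desi2*, *Ptpn11* and *Wapl*, and for *Ccna2* *Gpr65*, *Gtf2b* and *Arfgef2*. The lowest Pearson r of these 18 genes was 0.975, over 6 pools that share normalization. Each gene was picked for its high r from the 16494 tested probes with 1 gene, so values near 1 follow from the choice. Of the 18 only *Prdx1* (log2 fold change -0.69, adjusted p = 0.0484) and *Ccdc126* (0.97, adjusted p = 0.0409) passed the *limma* test between the genotypes.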

How the data were processed

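Total RNA of 6 LSK pools was labelled and hybridized, 1 pool per array. Per the labels and methods, the authors deposited scanner intensity values, not normalized, with a detection p-value per probe, and log2 values made with neqc in *limma*. In the deposited intensity table the headings of the intensity and detection columns were exchanged, which the value ranges show. Intensities were normalized with neqc (*limma* 3.58.1, R 4.3.3, background inferred from the detection p-values, offset 16, quantile), and the result differed from the deposited log2 values by at most 0.0256 over 19750 probes. Probes with a detection p-value under 0.05 on at least 1 array were fitted with lmFit and eBayes, two-sided, as 3 PU.1-deficient against 3 wild-type pools, with Benjamini-Hochberg adjustment. Of the 19750 probes, 16548 had 1 gene in the annotation table, 9 had several and 3193 were not named in it, and symbols were updated through the Entrez identifier. Of the tested probes, 16494 had 1 gene.

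The members and gene lists were chosen with earlier results of these data known. Named were every cyclin probe, the up to 4 largest changes past the threshold in each list, else its 2 smallest p-values, every gene beside *Ccno*, *Spi1*, and the 3 genes most alike each cyclin. *Xist* and the cell type markers were added to describe the pools. Alternatives changed the background, scaling, offset, starting values, filter, pairing, array weights, treatment of several probes and pools. Only the *limma* fit was tested on simulated data, log2 values whose pools varied independently of each other. Normalization, the *Ccno* bound and the motif search were not tested in this way. p-values measure the spread between pools only. Slide and scan date were not given in the sources used here, so no batch was fitted.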

Additional observations from a re-analysis of the deposited data

How the results depend on the processing

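Besides the all-pool comparison, 15 alternatives were run for each cyclin probe. All *Ccnd1*, *Ccnd2*, *Ccnd3*, *Ccne1* and *Ccna2* differences kept their sign in all of them, and *Ccne2*, at 0.37 with all pools, was -0.27 when PU.1-deficient pool 1 was left out and 0.95 when wild-type pool 1 was. Of the 13 cyclin probes other than *Ccno*, 4 passed (1 higher, 3 lower), against 9 (3 higher, 6 lower) with array weights, 6 lower without both pools numbered 1 and 2 to 4 on leaving out 1 pool, with 2 lower without wild-type pool 2 or 3. With 1 value per gene, 1 gene passed, *Ccnd1*. Over all probes, 1945 passed, against 7309 with array weights and 904 to 2091 on leaving out 1 pool. Scaling to equal medians moved the median of all probes to -0.17, and 37.6% of the 1829 probes that then passed were higher, against 55.6% of those in the all-pool comparison. It left 0 genes past the threshold among the CDKs and regulators, 0 among the E2F and DREAM factors and 0 among the degradation genes, where 1 each had passed. The lower bound of *Ccno* was 18.8-fold at a detection p-value under 0.01, and its measured difference was 4.95 with array weights. The causes were not tested.

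Both genotypes number their pools 1 to 3. Deviations of same-numbered pools correlated at 0.72, 0.61 and -0.15, and those of differently numbered pools at -0.68 to 0.52. The labels do not say that the numbers pair the pools, so the main comparison was unpaired. The deposited intensities list same-numbered pools of the genotypes next to each other. These correlations and this order do not decide whether the comparison should be paired. With the replicate number as a block, 3277 probes passed (1596 higher, 1681 lower) and 7 cyclin probes did (1 higher, 6 lower), *Ccnd2* with adjusted p-values of 0.00266, 0.00127 and 0.00689 for 3 probes. *Plk4* also passed with this block (adjusted p = 0.046).

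With 3 pools per genotype, a difference that did not pass was not shown to be absent, and some probes lay near background. *Ccnd2* probe ILMN_1235724, *Ccne2* and *Ccnd3* probe ILMN_1246473 were undetected in some pools, so their differences rest in part on background signal.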
